A study of Mus musculus with 6 samples.

Results

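The genes described here drive the passage from G1 into S phase and copy the DNA: G1 cyclins and kinases, the RB and E2F families, the proteins that license origins, the replication fork, the enzymes that make deoxynucleotides, and Uhrf1. They were 42 genes, and all 42 were found among the 55450 genes of the deposited table. The choice was by name from known roles and not from their values, though earlier results of these data were known. The cells were C2C12, a mouse skeletal muscle cell line that fuses into myotubes when serum is lowered. All 6 libraries came from cells transfected with 20 nM siRNA and used 72 h later, 3 with siRNA against Cd36 (siCD36) and 3 with a negative control siRNA (siCont), and the labels give the strain as C57BL/6. The labels call the cells myoblasts and the methods of the study describe myotubes, and the labels are silent on separate cultures and on which siCD36 duplex each library received. The p-values therefore measure only the spread between these libraries, which may be technical.

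In G1, cyclin D and cyclin E with their kinases phosphorylate RB and its relatives, which releases E2F transcription factors to switch on the genes of S phase. Origins are licensed when the origin recognition complex, Cdc6 and Cdt1 load the MCM helicase, and they fire when Cdc45 and GINS join it. Cells that differentiate into myotubes leave the cell cycle, RB and its relatives hold most of these genes at a low level, and C2C12 cultures also keep some single cells that have not fused.

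The RNA-seq table gives raw counts and FPKM, which are fragments per kilobase of gene scaled to library depth. Totals were 56907806 to 71878709 counts per library, and Cd36, the targeted gene, had 30 to 38 counts with siCD36 and 1010 to 1129 with siCont. The defining genes of myotubes were high in all libraries, with Myog, a transcription factor of differentiating muscle, at a mean of 411 FPKM with siCD36 and 396 FPKM with siCont. The 14 myotube genes checked, Myog among them, summed to 10397 to 14286 FPKM with siCD36 and 13994 to 17433 FPKM with siCont. Pax3 was listed at the floor of 1e-04 FPKM in both groups, and Pax7, a marker of muscle stem cells, had means of 0.0548 and 0.0262 FPKM. Other cell types were checked with 4 marker genes each. Summed FPKM per library was 0.582 to 1.25 for leukocytes, at most 0.0673 for adipocytes and 2.78 to 5.26 for epithelium, nearly all from the keratin gene Krt8, with Ptprc, Plin1 and Epcam at or near 0. Endothelial markers summed to 2.81 to 3.90 FPKM with siCD36 and 1.27 to 1.73 FPKM with siCont, nearly all from the receptor gene Tek, which rose 2.21-fold (edgeR adjusted p = 0.0216), while Cdh5 and Kdr were near 0. The part of such cells in the results was not tested. In bulk RNA, fewer cells of a type and less RNA per cell cannot be told apart.

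With siCD36, Rrm1, Mcm4 and Mcm5 rose and no member fell. The 5 members with a mean under 1 FPKM over the 6 libraries lay higher as well, and of these Orc1 alone passed, in a second fit. Of the 37 members whose mean reached 1 FPKM, the level used here for testing, 3 rose, 0 fell and 34 did not pass edgeR's quasi-likelihood test at a Benjamini-Hochberg adjusted p under 0.05. Over the 11796 genes tested, 5.26% passed, 2.2% as higher and 3.06% as lower with siCD36. Of the same 37 members, 22 had a log2 fold change above 0 and 15 below, with a median of 0.12, beside a median of 0.0028 over all genes tested, of which 50.5% lay above 0. The unadjusted edgeR p was under 0.05 for 8 higher and 3 lower members, where 12.5% of all genes were higher and 12.9% lower by this rule. DESeq2 on the same genes called 5 members higher and 3 lower, the latter E2f2, Rbl2 and Cdc45. Over all 11796 genes DESeq2 called 768 higher and 909 lower. With limma on log2(FPKM + 1) only Rrm1 was called, beside 265 higher and 288 lower over all genes. A p that misses the threshold does not show that a level was the same.

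The remaining 5 members, Orc1, Cdc6, Pola1, Tk1 and Uhrf1, had a mean under 1 FPKM and were not in that test. All 5 were higher in every siCD36 library than in every siCont library. Over all 42 members the groups did not overlap in 15 that were higher and 6 that were lower with siCD36, and they overlapped in 21. Among all genes of at least 1 FPKM, 16.1% did not overlap with siCD36 higher and 16.3% with siCD36 lower, and the 37 tested members gave 10 and 6. Among the 17396 genes with enough reads described next, 15.5% did not overlap with siCD36 higher and 13.7% with siCD36 lower. A second fit took the 17396 genes that pass edgeR's filterByExpr (here the count filter), which keeps a gene by its reads and holds all 42 members; it was chosen after the values were seen. In it 27 members lay above 0 and 15 below, 3 rose (Rrm1, Mcm5 and Orc1) and 0 fell, beside 3.44% of all genes that passed, 1.24% as higher and 2.2% as lower. The unadjusted p was under 0.05 for 13 higher and 3 lower members, beside 10.2% of all genes that were higher by this rule. DESeq2 called 9 members higher and 3 lower. In this fit no share over all genes was taken for lower genes by the unadjusted p, nor for DESeq2. These counts therefore stand without a background.

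**Figure D1:**
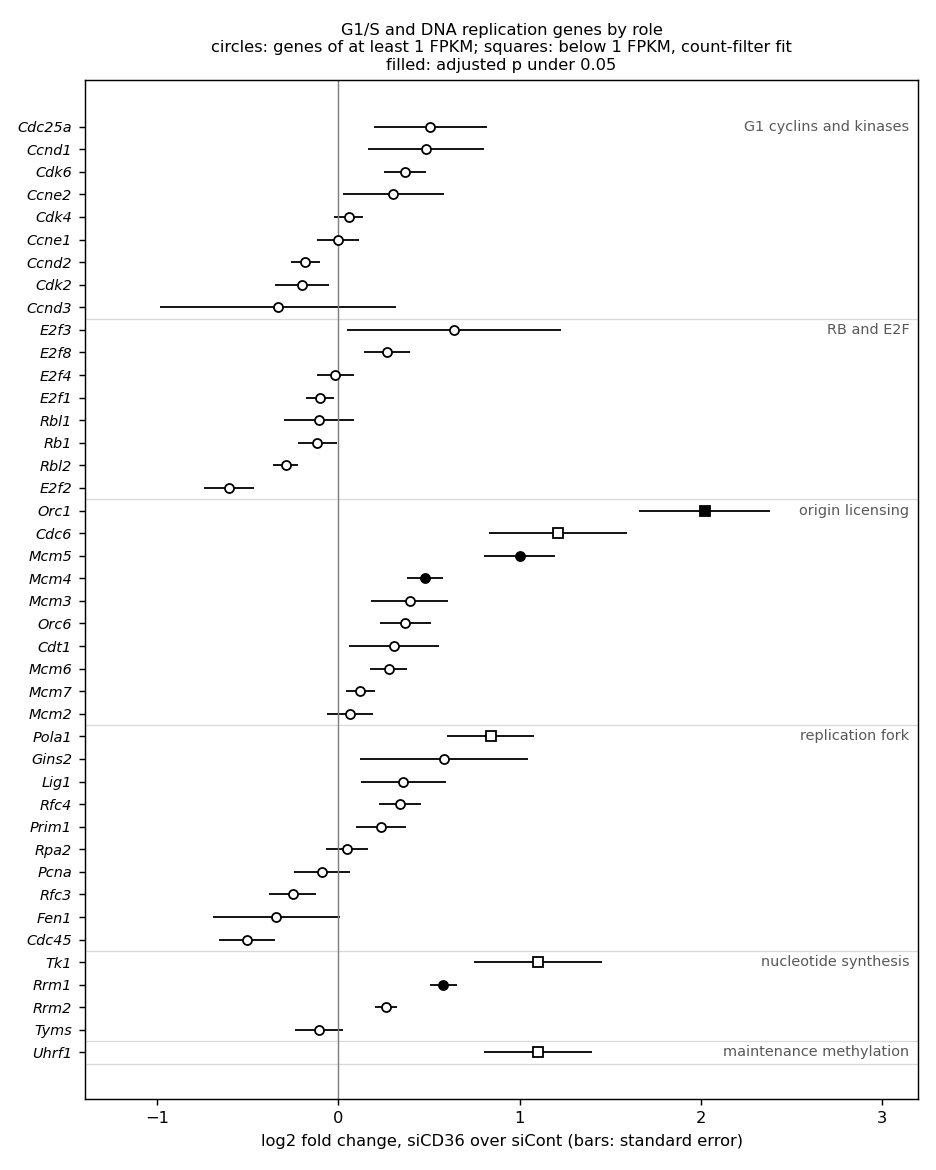
Log2 fold change of each member, siCD36 over siCont, with its standard error, grouped by role. Circles are the 37 members of at least 1 FPKM, squares the 5 below it from the count-filter fit, and filled symbols have an adjusted p under 0.05 (Rrm1, Mcm4, Mcm5 and, among the squares, Orc1). All 10 origin licensing genes lie to the right of 0, and 6 of the 8 RB and E2F genes lie to the left.

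The sequences just before the start sites of 7 members are shown, those of the 6 with the largest log2 fold change in the count-filter fit and that of Rrm1, which had the smallest p. They are the 250 bases before the start site in RefSeq on GRCm38.p6, written in the direction of the gene. The capitals mark matches to 4 spellings of the E2F site, TTTCCCGC, TTTGGCGC, TTTGCCGC and TTTCGCGC, searched on both strands, and matches may overlap, as they do in Mcm5.
Mcm5, chr8:75109259-75109508, plus strand: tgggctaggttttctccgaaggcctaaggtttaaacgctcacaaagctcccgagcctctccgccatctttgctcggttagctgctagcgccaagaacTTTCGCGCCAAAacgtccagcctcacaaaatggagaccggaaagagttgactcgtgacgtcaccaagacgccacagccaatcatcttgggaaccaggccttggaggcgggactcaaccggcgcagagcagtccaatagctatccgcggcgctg
Orc1, chr4:108579204-108579453, plus strand: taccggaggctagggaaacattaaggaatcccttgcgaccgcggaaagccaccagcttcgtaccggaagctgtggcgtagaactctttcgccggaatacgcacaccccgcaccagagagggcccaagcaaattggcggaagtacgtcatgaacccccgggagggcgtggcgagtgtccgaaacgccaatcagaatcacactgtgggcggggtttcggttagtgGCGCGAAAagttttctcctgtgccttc
Cdc6, chr11:98907901-98908150, plus strand: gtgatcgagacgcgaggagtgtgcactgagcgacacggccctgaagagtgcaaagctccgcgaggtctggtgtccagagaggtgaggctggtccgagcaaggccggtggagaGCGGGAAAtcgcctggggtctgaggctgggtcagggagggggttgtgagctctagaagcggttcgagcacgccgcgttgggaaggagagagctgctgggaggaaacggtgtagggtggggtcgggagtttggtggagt
Tk1, chr11:117826015-117826264, minus strand: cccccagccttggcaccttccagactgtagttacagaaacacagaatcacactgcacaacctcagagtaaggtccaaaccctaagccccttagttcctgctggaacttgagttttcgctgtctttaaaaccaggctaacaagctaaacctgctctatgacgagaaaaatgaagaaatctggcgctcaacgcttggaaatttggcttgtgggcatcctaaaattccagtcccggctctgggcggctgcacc
Pola1, chrX:93632156-93632405, minus strand: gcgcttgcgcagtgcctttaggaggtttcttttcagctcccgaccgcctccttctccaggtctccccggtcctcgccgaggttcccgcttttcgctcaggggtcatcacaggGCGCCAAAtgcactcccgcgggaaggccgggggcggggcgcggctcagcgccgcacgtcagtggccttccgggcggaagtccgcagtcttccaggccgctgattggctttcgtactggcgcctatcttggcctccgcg
Uhrf1, chr17:56304063-56304312, plus strand: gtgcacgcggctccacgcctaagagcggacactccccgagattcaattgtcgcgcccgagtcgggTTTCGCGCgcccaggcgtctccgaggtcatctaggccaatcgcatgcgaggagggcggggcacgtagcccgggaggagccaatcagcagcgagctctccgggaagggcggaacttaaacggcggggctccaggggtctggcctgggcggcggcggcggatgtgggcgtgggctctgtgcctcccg
Rrm1, chr7:102441445-102441694, plus strand: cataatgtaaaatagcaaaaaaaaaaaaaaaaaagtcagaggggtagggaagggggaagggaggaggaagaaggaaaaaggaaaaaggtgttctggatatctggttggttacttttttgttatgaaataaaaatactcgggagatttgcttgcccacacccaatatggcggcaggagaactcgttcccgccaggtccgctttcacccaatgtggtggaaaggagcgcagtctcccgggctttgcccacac

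Positions were counted from the RefSeq start site, with the base before it as -1. The first base of the match lay at -153 and -149 in Mcm5, at -27 in Orc1 and at -138 in Cdc6 and in Pola1. In Uhrf1 it lay at -185, and the other RefSeq start of Uhrf1 held none. In Tk1 and Rrm1 none of the spellings was found. By the deposited gene coordinates, the printed windows of Cdc6 and Uhrf1 lie wholly inside the gene, and those of Orc1 and Tk1 partly. The matches of Cdc6, Uhrf1 and Orc1 thus fall inside the deposited gene. RefSeq promoters were at hand for 35 of the 42 members, and 16 of them (45.7%) held one of the spellings in the window from 250 bases before to 50 bases after the start. Among all 27025 mouse genes with such windows, 2.6% did. The members were picked by their roles and include textbook targets of E2F, so the share describes the list. By role, 7 of 9 origin licensing genes, 3 of 9 replication fork genes and 0 of 4 nucleotide synthesis genes had a match. The CCAAT box, searched as CCAAT on both strands, was in 22 of the 35 members (62.9%) and in 41.1% of all genes. TTTGAA, the core of an element of mitotic genes, was in 7 of 35 (20%) and in 20.2% of all genes. In the count-filter fit the median log2 fold change was 0.36 over the 16 members with an E2F match, 12 of them above 0, and 0.041 over the 19 without, 11 of them above 0. A match of letters is a description of these windows and not of binding.

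Origin licensing was the role of more than 1 member in which all members had a positive log2 fold change. The 9 further genes of this role, from a list described below, had 7 above 0 and 2 below in the count-filter fit. Their median was 0.015, and 0 passed. Of the 10 members in origin licensing, 8 were tested, 2 rose, 0 fell and 6 did not pass. All 10 lay above 0 in the count-filter fit, under TMM, RLE and upper-quartile scaling alike. Mcm5 (ENSMUSG00000005410, chromosome 8 from 75109569 to 75128439) encodes a subunit of the MCM ring, the helicase that unwinds DNA. It had 6.62, 7.32 and 8.31 CPM, the counts scaled to library depth after TMM, with siCD36 and 2.91, 3.75 and 4.45 CPM with siCont. Every siCD36 library lay above every siCont library, and the lowest siCont value was that of replicate 1. Mcm5 rose 2.00-fold, a log2 fold change of 1.00 ± 0.20 (SE; edgeR, adjusted p = 0.0414). It passed the level for testing only through siCD36, with a mean of 1.65 FPKM against 0.807 FPKM with siCont, so its passing the filter and its difference are not separate facts. Mcm5 was also the 1 tested member with an unadjusted p under 0.05 and a log2 fold change of 1 or more in either direction, a pair of thresholds that 1.76% of all tested genes met.

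Mcm4 (ENSMUSG00000022673, chromosome 16 from 15623897 to 15637400), another subunit of the ring, had 26.1, 28.5 and 29.2 CPM with siCD36 and 18.4, 21.6 and 20.3 CPM with siCont. The groups did not overlap. Mcm4 rose 1.39-fold, a log2 fold change of 0.48 ± 0.10 (SE; edgeR, adjusted p = 0.0491), close to the threshold, and its adjusted p was 0.0589 in the count-filter fit and 0.0501 with RLE scaling. Mcm3 had 8.58, 13.1 and 14.4 CPM with siCD36 and 8.30, 10.4 and 8.87 CPM with siCont, so that siCD36 replicate 1 lay within the siCont range. Its log2 fold change was 0.39 ± 0.21 (SE; edgeR, adjusted p = 0.299).

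With 1 library left out, the edgeR calls of these genes changed, while the log2 fold change of Mcm5 stayed between 0.85 and 1.16 and that of Mcm4 between 0.42 and 0.53. For Mcm5 the adjusted p was 0.0450, 0.149 and 0.122 without siCD36 replicates 1, 2 and 3, and 0.0839, 0.147 and 0.0653 without siCont replicates 1, 2 and 3. For Mcm4 the adjusted p was 0.0418, 0.177 and 0.133 without siCD36 replicates 1, 2 and 3, and 0.118, 0.132 and 0.117 without siCont replicates 1, 2 and 3. Both genes thus passed only in the fit without siCD36 replicate 1. A fit with 5 libraries has less power, and a lost call does not show that the difference came from the library left out.

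The 6 subunits of the ring, Mcm2 to Mcm7, act in equal number in the complex, but their FPKM, which is per length, differed. Mcm6 was highest and Mcm5 lowest in all 6 libraries. Mean levels with siCont were 7.49 FPKM for Mcm6, 5.10 for Mcm7, 4.89 for Mcm4, 2.49 for Mcm2, 2.13 for Mcm3 and 0.807 for Mcm5. Mcm4 and Mcm7 changed places between libraries, as did Mcm2 and Mcm3, so the order of these neighbours is not set. The summed level of the 6 subunits was 25.7, 29.6 and 32.0 FPKM with siCD36 (29.1 ± 3.16, SD, n = 3) and 21.3, 23.2 and 24.2 FPKM with siCont (22.9 ± 1.48, SD, n = 3). The lowest siCD36 library, replicate 1, lay above the highest siCont library. The deposited FPKM divide by the joined length of all exons of a gene. Counted per length of the longest protein-coding transcript instead, as means over the 6 libraries, Mcm6 stood highest at 10.1 and Mcm5 lowest at 1.64, and Mcm2 moved from 2.58 FPKM to 5.99. Mcm2 overlapped between the groups, and its log2 fold change was 0.064 ± 0.13 (SE; edgeR, adjusted p = 0.789).

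**Figure D2:**
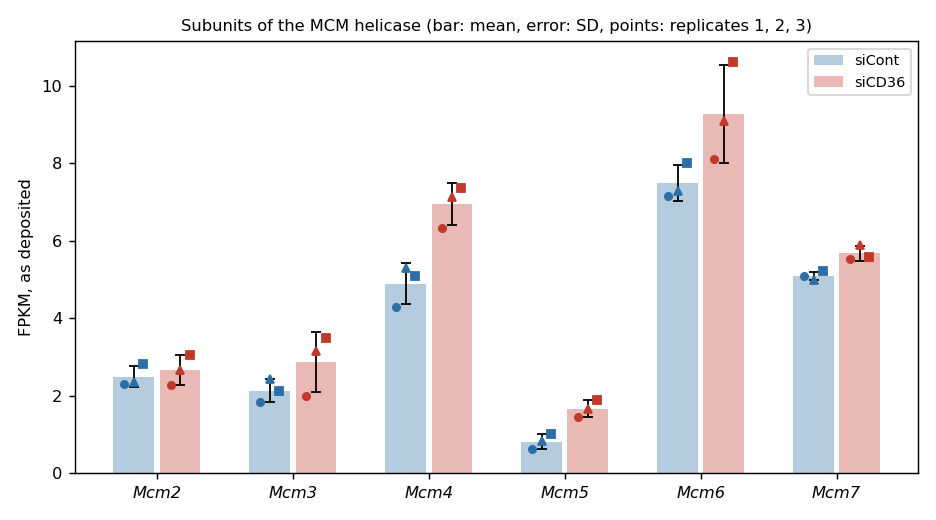
Deposited FPKM of the 6 subunits of the MCM ring, with a bar for the mean of 3 libraries, its SD and the 3 replicates as points. Mcm5, the lowest subunit, goes from a mean of 0.807 FPKM with siCont to 1.65 FPKM with siCD36, while the points of Mcm2 and Mcm3 overlap.

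Orc1 and Cdc6, which help to load the ring, had the lowest levels of the members. Orc1 (ENSMUSG00000028587, chromosome 4 from 108579423 to 108595580), the largest subunit of the origin recognition complex, was the lowest of all 42, with a mean of 0.196 FPKM over the 6 libraries. Its reads numbered 67, 77 and 118 with siCD36 and 12, 22 and 19 with siCont. No siCont library came near the lowest siCD36 library. In the count-filter fit Orc1 rose 4.06-fold, a log2 fold change of 2.02 ± 0.36 (SE; edgeR, adjusted p = 0.0387). Its adjusted p was 0.0441, 0.129 and 0.121 without siCD36 replicates 1, 2 and 3, and 0.0944, 0.124 and 0.0936 without siCont replicates 1, 2 and 3, with a log2 fold change of 1.80 to 2.18. The gene shares 10.8% of its exon bases with Gm12743 on the opposite strand, which had 150 reads over the 6 libraries, and whether the counting used strand is not given.

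Cdc6 (ENSMUSG00000017499, chromosome 11 from 98907801 to 98923940), which loads the ring with the origin recognition complex, had 142, 107 and 183 reads with siCD36 and 72, 53 and 29 with siCont. No siCont library reached the lowest siCD36 library. The log2 fold change was 1.21 ± 0.38 (SE), and Cdc6 did not pass the test in the count-filter fit (edgeR adjusted p = 0.134). Cdt1, its partner in loading, had 1.68 ± 0.530 FPKM with siCD36 and 1.32 ± 0.0863 FPKM with siCont (SD, n = 3), and the groups overlapped. Orc6, a small subunit of the origin recognition complex, stood far above Orc1 at 10.5 ± 1.65 FPKM with siCD36 and 7.93 ± 0.991 FPKM with siCont (SD, n = 3), with 1 siCD36 library inside the siCont range. Of the exon bases of Orc6, 6.93% lie opposite Vps35, which had 144045 reads against 9985.

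At the replication fork, 9 of 10 genes were tested, 0 rose, 0 fell and 9 did not pass edgeR's test, with 5 above 0 and 4 below. At an unadjusted p under 0.05, 1 was higher (Rfc4) and 1 lower (Cdc45), and DESeq2 called Cdc45 lower. Pola1 (ENSMUSG00000006678, chromosome X from 93304767 to 93632155), the catalytic subunit of DNA polymerase alpha, was the member under 1 FPKM. It had 259, 436 and 497 reads with siCD36 and 200, 191 and 155 with siCont, at 0.576 ± 0.164 and 0.308 ± 0.0307 FPKM (SD, n = 3). The lowest siCD36 library, replicate 1, lay closer to the siCont libraries than to the other siCD36 libraries. Pola1 had a log2 fold change of 0.84 ± 0.24 (SE; edgeR in the count-filter fit, adjusted p = 0.109).

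Cdc45, which joins the MCM ring when an origin fires, was lower in all siCD36 libraries. It had 15.4, 10.7 and 13.2 CPM with siCD36 and 18.1, 17.6 and 20.04 CPM with siCont. No siCD36 library reached the siCont range, but Cdc45 did not pass the test, with a log2 fold change of -0.50 ± 0.15 (SE; edgeR, adjusted p = 0.108). Of its exon bases, 5.96% lie opposite Ufd1, which had 23589 reads against 5958. Gins2, a subunit of the GINS complex that joins with Cdc45, had 8.10, 5.26 and 5.33 CPM with siCD36 and 2.14, 7.24 and 3.10 CPM with siCont. The groups overlapped through siCont replicate 2, and 67.3% of the exon bases of Gins2 lie opposite exons of Gse1, so that reads of this gene are uncertain. Like Mcm5, Gins2 reached the level for testing only through siCD36, with a mean of 1.35 FPKM against 0.886 FPKM with siCont. Lig1, the ligase that joins Okazaki fragments, had 6.48, 7.64 and 10.1 CPM with siCD36 and 4.97, 6.13 and 7.81 CPM with siCont, which overlapped, and a log2 fold change of 0.36 (edgeR adjusted p = 0.388).

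Pcna, the sliding clamp, was the highest of the fork genes at 20.3 ± 3.36 FPKM with siCD36 and 21.1 ± 1.67 FPKM with siCont (SD, n = 3), with overlapping groups. The genes of its loader differed in sign, with a log2 fold change of 0.34 for Rfc4 (edgeR adjusted p = 0.138) and -0.25 for Rfc3 (edgeR adjusted p = 0.285). Neither gene overlapped between the groups, and 12.7% of the exon bases of Rfc4 lie opposite the abundant Eif4a2. Fen1, which removes the flaps of Okazaki fragments, had 9.81, 3.68 and 8.30 CPM with siCD36 and 10.7, 8.55 and 8.37 CPM with siCont, and siCD36 replicate 2 stood apart from the other libraries. Of its exon bases, 78.8% lie opposite Gm10143, which had 53 reads in all against 3112 for Fen1, and 5.37% opposite Tmem258, which had 34820.

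Among the enzymes of deoxynucleotide synthesis, 3 of 4 genes were tested, 1 rose, 0 fell and 2 did not pass. Rrm1 (ENSMUSG00000030978, chromosome 7 from 102441695 to 102469771) encodes the large subunit of ribonucleotide reductase, which makes deoxynucleotides from ribonucleotides. It had 174, 185 and 193 CPM with siCD36 and 129.8, 125 and 114 CPM with siCont. The gap between the groups was larger than the range within either group. Rrm1 rose 1.49-fold, a log2 fold change of 0.58 ± 0.073 (SE; edgeR, adjusted p = 0.0167), and its adjusted p was the smallest of the members. With each library left out, the log2 fold change stayed between 0.53 and 0.62. The adjusted p was 0.0217, 0.0852 and 0.0538 without siCD36 replicates 1, 2 and 3, and 0.0508, 0.0860 and 0.0528 without siCont replicates 1, 2 and 3.

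Rrm2, the small subunit of the same enzyme, had 121, 126 and 130.2 CPM with siCD36 and 109, 102 and 103 CPM with siCont. The groups did not overlap, but Rrm2 missed the threshold, with a log2 fold change of 0.26 ± 0.060 (SE; edgeR, adjusted p = 0.0599). The level of Rrm2 was higher than that of Rrm1 per length, at 33.0 ± 0.514 FPKM against 9.74 ± 0.361 FPKM with siCont (SD, n = 3), and the gap narrowed to 52.2 against 38.2 in the same unit on the length of the longest protein-coding transcript (means over the 6 libraries). Tk1 (ENSMUSG00000025574, chromosome 11 from 117815526 to 117826092), the thymidine kinase of the cytosol that salvages thymidine, had 307, 425 and 517 reads with siCD36 and 216, 88 and 171 with siCont. Its groups did not overlap, and the log2 fold change was 1.10 ± 0.35 (SE; edgeR in the count-filter fit, adjusted p = 0.138). Tyms, thymidylate synthase, which makes the same nucleotide anew, had 8.81, 10.1 and 11.2 CPM with siCD36 and 9.80, 11.6 and 11.1 CPM with siCont. These values overlapped, and its log2 fold change was -0.11 (edgeR adjusted p = 0.653).

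Uhrf1 (ENSMUSG00000001228, chromosome 17 from 56303321 to 56323486) binds newly copied DNA that is methylated on 1 strand and brings the methyltransferase Dnmt1 to it. It had 303, 419 and 633 reads with siCD36 and 118, 213 and 188 with siCont. Every siCD36 library lay above the siCont range, and replicate 3 was the highest. The log2 fold change was 1.10 ± 0.30 (SE), with an adjusted p of 0.0996 from edgeR in the count-filter fit. With a mean of 0.978 FPKM over the 6 libraries, Uhrf1 lay just under the level for testing, and Tk1 at 0.733 FPKM was the next below it. Just above it were Gins2 at 1.12 FPKM and Mcm5 at 1.23 FPKM. This level depends on the length used: per longest protein-coding transcript, Tk1 had 3.01 and Uhrf1 1.31 in the same unit, and 3 rather than 5 members lay under 1.

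**Figure D3:**
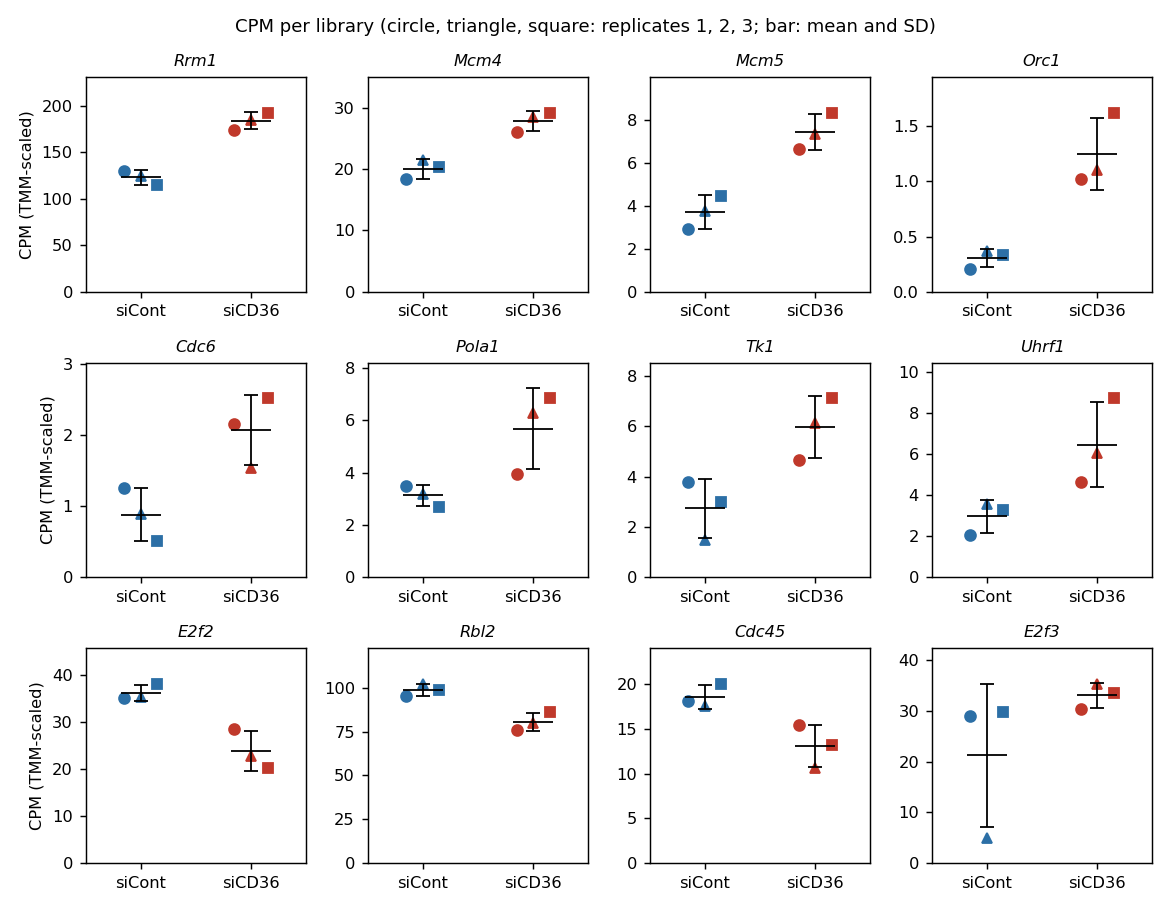
CPM per library for 12 members, with the mean and SD of each group and 1 symbol per replicate. In Rrm1, Mcm4, Mcm5, Orc1, Cdc6, Pola1, Tk1 and Uhrf1 the siCD36 libraries lie above the siCont libraries, in E2f2, Rbl2 and Cdc45 they lie below, and in E2f3 the siCont libraries are split by replicate 2 at 4.98 CPM.

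The RB and E2F genes gave 2 members above 0 and 6 below, or 3 and 5 with upper-quartile scaling, where E2f4 moved to 0.0075. In edgeR's test 0 rose, 0 fell and 8 did not pass, at an unadjusted p under 0.05 0 were higher and 2 lower (E2f2 and Rbl2), and DESeq2 called both lower. E2f2, an E2F that activates S phase genes, had 28.5, 22.7 and 20.2 CPM with siCD36 and 35.2, 35.4 and 38.1 CPM with siCont. No siCD36 library reached the siCont range. The log2 fold change was -0.61 ± 0.14 (SE; edgeR, adjusted p = 0.0593), the most negative of the members. Without siCD36 replicate 1, E2f2 passed at an adjusted p of 0.0230 with a log2 fold change of -0.76.

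Rbl2, a relative of RB that is abundant in cells outside the cycle, had 76.0, 79.9 and 86.1 CPM with siCD36 and 95.4, 102 and 98.6 CPM with siCont. The groups did not overlap, and the log2 fold change was -0.29 ± 0.071 (SE; edgeR, adjusted p = 0.0700). Of its exon bases, 9.17% lie opposite Aktip, which had 29623 reads in all against 34070 for Rbl2, and 11.8% opposite Gm45464, which had 440. Its relatives Rb1 and Rbl1 had log2 fold changes of -0.12 and -0.11, and their groups overlapped. E2f3, another activating E2F, had 30.4, 35.3 and 33.6 CPM with siCD36 and 29.0, 4.98 and 29.9 CPM with siCont. The siCont libraries were split, with 299 reads in replicate 2 against 1655 and 1716 in the others. Its log2 fold change of 0.64 (edgeR adjusted p = 0.544) was 0.17 without siCont replicate 2. E2f1 had 20.6 ± 0.572 CPM with siCD36 and 22.1 ± 0.194 CPM with siCont (SD, n = 3), with no overlap and a log2 fold change of -0.10 (edgeR adjusted p = 0.473). E2f4, the E2F that RB relatives use to silence genes, had the highest level of the family with a mean of 26.8 FPKM over the 6 libraries. E2f8, an E2F that represses, had a log2 fold change of 0.27 (edgeR adjusted p = 0.241).

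The G1 cyclins and kinases had 5 members above 0 and 4 below, or 6 and 3 with upper-quartile scaling, where Ccne1 moved to 0.021. In edgeR's test 0 rose, 0 fell and 9 did not pass, and Cdk6 alone had an unadjusted p under 0.05 and was called by DESeq2. Cdk6, a partner of cyclin D, had 29.1, 30.2 and 32.9 CPM with siCD36 and 20.8, 24.5 and 26.2 CPM with siCont. The groups did not overlap, and the log2 fold change was 0.37 ± 0.11 (SE; edgeR, adjusted p = 0.112). Cdk4, the other partner, had the highest level of all 42 members, at 52.9 ± 1.98 FPKM with siCD36 and 49.9 ± 6.05 FPKM with siCont (SD, n = 3), and a log2 fold change of 0.057. Of the exon bases of Cdk4, 19.7% lie opposite Tspan31.

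Among the cyclins, Ccnd3 and Ccnd1 varied widely between replicates, while Ccnd2 and Ccne1 had coefficients of variation of at most 9.1%. Ccnd1, cyclin D1, had 9.40, 10.5 and 11.9 CPM with siCD36 and 4.88, 6.30 and 11.6 CPM with siCont, and its log2 fold change of 0.48 ± 0.32 (SE; edgeR, adjusted p = 0.393) moved to 0.92 without siCont replicate 3 and to 0.25 without siCont replicate 1. Of its exon bases, 23.4% lie opposite LTO1. Ccnd3, cyclin D3, which accumulates as muscle cells differentiate, had 182, 94.0 and 39.0 CPM with siCD36 and 209, 53.9 and 135 CPM with siCont. This was the widest spread among replicates of the 42 members, with a coefficient of variation of 68.9% with siCD36 and 58.5% with siCont. Cdc25a, a phosphatase that activates Cdk2, had 11.3, 15.3 and 14.3 CPM with siCD36 and 10.3, 5.48 and 13.0 CPM with siCont, which overlapped, and a log2 fold change of 0.51 (edgeR adjusted p = 0.361). Ccnd2 did not overlap between the groups, with a log2 fold change of -0.18 (edgeR adjusted p = 0.222), and Ccne1 and Cdk2 had -0.0029 and -0.20. In 7 of the 42 members the coefficient of variation passed 40% in at least 1 group, namely Ccnd3, E2f3, Gins2, Ccnd1, Fen1, Tk1 and Cdc6, and its median over the members, taking the larger of both groups, was 16.4%.

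Members of low level lay higher with siCD36 than the rest, with no order among the higher levels. In the count-filter fit, 13 of the 15 members under 2 FPKM lay above 0, with a median log2 fold change of 0.49 and a range from -0.13 to 2.02. Among all 7420 genes under 2 FPKM, 58.7% lay above 0 and the median was 0.11. Between 2 and 5 FPKM the median of 12 members was 0.039, against 0.012 over all 3130 genes. Between 5 and 10 FPKM 4 of 7 members lay above 0, with a median of 0.10 against -0.027 over all 2462 genes, and E2f2 at -0.62 was the lowest of all members. Of the 8 members above 10 FPKM, 3 lay above 0, with a median of -0.070 against -0.042 over all 4341 genes, and Rrm1 was the highest of these at 0.56. Low members are also those where counting error is largest.

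**Figure D4:**
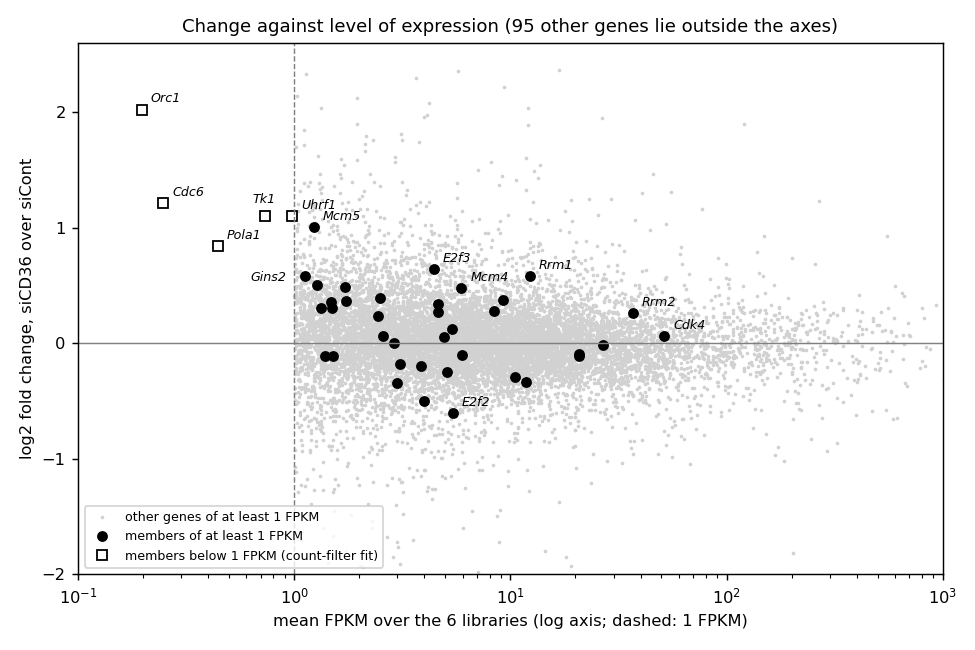
Log2 fold change against the mean FPKM over the 6 libraries on a log axis, with members in black over all other tested genes in grey. The 5 members below 1 FPKM, drawn as squares from the count-filter fit, have log2 fold changes of 0.84 to 2.02, and 95 other genes lie outside the axes.

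The further genes of the same pathway, 74 set by role, gave 54 tested genes, of which 2 rose, 3 fell and 49 did not pass. Over all genes tested, 2.2% passed as higher and 3.06% as lower. Of these 54 further genes, 37 lay above 0 and 17 below, with a median log2 fold change of 0.090, where 50.5% of all genes tested lay above 0. Dctd, which deaminates deoxycytidylate on the way to thymidylate, had 17.3, 20.5 and 19.8 CPM with siCD36 and 9.54, 11.7 and 12.8 CPM with siCont, a log2 fold change of 0.76 ± 0.14 (SE; edgeR, adjusted p = 0.0359). Mnat1, which assembles the kinase that activates the cell cycle kinases, had a log2 fold change of 0.40 ± 0.082 (SE; edgeR, adjusted p = 0.0465). In both genes every siCD36 library lay above every siCont library.

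E2f6, an E2F that represses, had 27.6, 26.4 and 27.7 CPM with siCD36 and 40.02, 40.8 and 40.1 CPM with siCont, a log2 fold change of -0.56 ± 0.068 (SE; edgeR, adjusted p = 0.0157). The values of each group lay close together and far from those of the other. Cdc34, a ubiquitin-conjugating enzyme of the G1 to S transition, fell by 0.49 on the log2 scale (SE 0.078; edgeR adjusted p = 0.0274). Samhd1, which breaks down deoxynucleotide triphosphates, fell by 0.51 on the log2 scale (SE 0.095; edgeR adjusted p = 0.0362). With 1 library left out, the adjusted p of these 5 genes was 0.0220 to 0.0450 without siCD36 replicate 1 and 0.0910 to 0.185 without siCD36 replicate 2. In the fits without siCD36 replicate 3 or a siCont library, E2f6 passed without siCD36 replicate 3 (0.0497) and the other values were 0.0525 to 0.157.

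The difference among members was uneven across the siCD36 libraries. Replicate 1 was the lowest siCD36 library in 27 of 42 members and replicate 3 the highest in 25. Among the siCont libraries, replicate 1 was the lowest in 19 members and the highest in 16, and replicate 3 the highest in 17. Summed over Orc1, Cdc6, Pola1, Tk1 and Uhrf1, the level was 2.71, 3.50 and 4.63 FPKM with siCD36 and 1.58, 1.53 and 1.63 FPKM with siCont. The 3 siCont libraries lay close together in this sum and the siCD36 libraries did not. The single genes did not share this. The coefficient of variation was larger with siCont than with siCD36 for Tk1 (42.8% against 20.5%), Cdc6 (42.8% against 23.8%) and Orc1 (27.1% against 26.0%). It was smaller with siCont for Uhrf1 (26.7% against 32.2%) and Pola1 (12.9% against 27.0%).

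Most genes of G2 and mitosis also lay higher with siCD36, while 1 myotube gene fell and 1 myoblast gene rose. Over all genes tested, 2.2% passed edgeR's test as higher and 3.06% as lower. DESeq2 called 768 of the 11796 genes higher and 909 lower. The summed level of 16 genes of G2 and mitosis was 19.9, 22.5 and 26.2 FPKM with siCD36 and 12.5, 12.9 and 12.8 FPKM with siCont. Of the 6 of them that were tested, 3 rose (Ccna2, Ccnb2 and Tpx2), 0 fell and 3 did not pass, and DESeq2 called 5 higher and 0 lower. In the count-filter fit 15 of the 16 lay above 0 and 1 below. There 5 rose and 0 fell, beside 1.24% and 2.2% of the 17396 genes. The groups did not overlap in 11 that were higher and 1 that was lower, beside 15.5% and 13.7%. Ccna2, cyclin A2, which acts in S phase and G2, had a log2 fold change of 1.02 ± 0.13 (SE; edgeR, adjusted p = 0.0166). The summed level of 14 myotube genes was 14286, 11375 and 10397 FPKM with siCD36 and 17433, 15264 and 13994 FPKM with siCont, which overlapped, and of these 14 genes 0 rose, 1 fell (Myh3, the embryonic myosin heavy chain) and 13 did not pass edgeR's test. At an unadjusted edgeR p under 0.05, 0 were higher and 3 lower, beside 12.5% and 12.9% of all genes tested. DESeq2 called 0 higher and 2 lower. Of the 14 myotube genes, 3 had a log2 fold change above 0 and 11 below, with a median of -0.20. The summed level of 10 myoblast genes was 862, 691 and 612 FPKM with siCD36 and 1129.5, 924 and 873 FPKM with siCont, with no overlap. Of these 10 genes, 7 were tested, 1 rose (Myf5, a transcription factor of myoblasts, by 0.93 on the log2 scale), 0 fell and 6 did not pass, while DESeq2 called 2 higher and 1 lower. The 7 tested genes had 4 log2 fold changes above 0 and 3 below, with a median of 0.0066, so the lower sum was not a shared direction. The part of these lists of genes in the differences of the members was not tested.

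**Figure D5:**
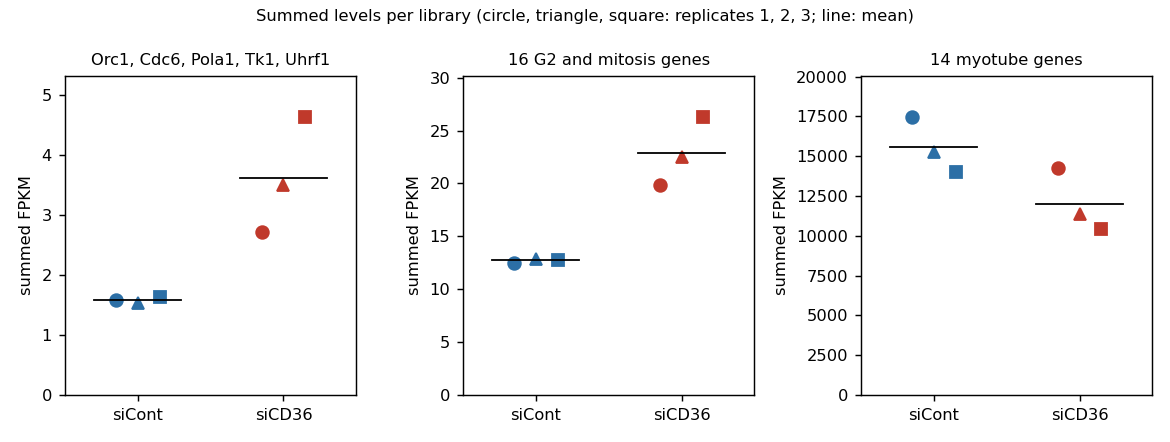
Summed FPKM per library for the 5 members below 1 FPKM, for 16 genes of G2 and mitosis and for 14 myotube genes, with a line at the mean of each group. In the first and second panels all siCD36 libraries lie above the siCont libraries, and in the panel of myotube genes the groups overlap.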

How the data were processed

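RNA-seq of 6 C2C12 libraries was analysed, 3 with siCD36 and 3 with siCont, grouped by the sample labels. HISAT (version 2.0) was the authors' aligner, StringTie gave FPKM and edgeR their test, per the methods of the study. Raw, unnormalized counts and FPKM scaled by length and depth stand side by side in the authors' deposited table, where a gene without reads is listed at 1e-04 FPKM. In the sources used here, neither the genome build nor how reads were counted (tool, strand, annotation) is given. The deposited gene coordinates equal those of GENCODE M21 (GRCm38) for 34 of the 42 members. The lengths implied by the FPKM follow its joined exon lengths, at a median of 1.125 times their size.

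Genes whose mean reached 1 FPKM were fitted with edgeR 4.0.16 in R 4.3.3 (TMM, glmQLFit, glmQLFTest, condition as the only term), with Benjamini-Hochberg adjustment over the 11796 genes tested. CPM are counts over the TMM-scaled library size, and the SE of a log2 fold change is its size over the root of F. Alternatives were RLE and upper-quartile scaling, DESeq2 1.42.0, limma 3.58.1 on log2(FPKM + 1) and log2(FPKM + 0.1), robust estimation, other filters, the replicate number as a block, the thresholds of the study's methods and each library left out. The fit of the 17396 genes that pass filterByExpr (minimum count 10, minimum total 15) was added after the data were seen. Scripts were tested on simulated data.

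Members and lists were chosen with earlier results of these data known. Members named with a value in every library were those with an adjusted p under 0.05, those with an unadjusted p under 0.05 and a log2 fold change of 1 or more in either direction, and the 3 largest log2 fold changes of each role. The 5 members below 1 FPKM, Fen1 and Ccnd3 were added after their values were seen. Of the further list, genes with an adjusted p under 0.05 were named, and E2f7, Dscc1, Hells, Skp2 and Dck were added after their values were seen. Promoter sequences are from RefSeq.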

Additional observations from a re-analysis of the deposited data

How the results depend on the processing

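None of the 379 values recomputed for single genes changed direction; they cover the genes picked by the naming rule, the 5 members below 1 FPKM and the 5 further genes called. Among all 42 members, Ccne1 and E2f4 changed sign with upper-quartile scaling, to 0.021 and 0.0075. Other genes named with a value were not recomputed under the remaining alternatives. Beside 3 members called by edgeR, DESeq2 called 8, limma on log2(FPKM + 1) and on log2(FPKM + 0.1) called 1 each, no filter beyond 1 read left 1, and the thresholds of the study's methods 1. With the replicate number as a block 0 members, 0 further genes (main 5) and 199 of all genes (main 621) were called. The deviations of same-numbered libraries from their group means correlated at 0.131, -0.0427 and 0.0141 over genes, and those of other pairs at -0.107 to 0.107. With 3 libraries per group, these values do not settle whether the numbers pair the libraries. The 5 further genes became 11 with DESeq2, 2 without a filter and 0 at the study's thresholds, and the 621 genes became 1677, 327 and 208. In the count-filter fit the 3 members called became 12 with DESeq2, 1 with limma on log2(FPKM + 1), 0 with the block and 1 without a filter. With 1 library left out, 0 to 6 members, 0 to 9 further genes and 20 to 1081 of all genes were called, and 0 to 4 members in the count-filter fit. The upper ends, 6, 9 and 1081, came without siCD36 replicate 1, and the cause was not tested. Of the tested members 15 lay below 0, and 7 with a mean of at least 5 FPKM, where fewer genes are tested. Of the 379 values, 295 kept their side of the threshold, 69 lost it and 15 passed it. Depth limits the members below 1 FPKM most, where a siCont library held as few as 12 reads of Orc1.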

Other observations

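Of the 74 further genes of the pathway, 20 had a mean under 1 FPKM, and several of them showed the pattern of Orc1 and Cdc6 (named after their values were seen). E2f7, an E2F that represses, had 48, 100 and 170 reads with siCD36 and 12, 34 and 17 with siCont. Dscc1, part of the loader that joins the clamp to sister chromatid cohesion, had 75, 87 and 90 reads with siCD36 and 10, 22 and 25 with siCont. Hells, a chromatin remodeller that works with DNA methylation, had 314, 413 and 555 reads with siCD36 and 191, 203 and 211 with siCont. In these 3 genes every siCD36 library lay above every siCont library, and none passed edgeR's quasi-likelihood test in the count-filter fit, with adjusted p of 0.0988, 0.0534 and 0.0795. Over all 74 further genes the groups did not overlap in 24 that were higher and 6 that were lower with siCD36, beside 15.5% and 13.7% of the 17396 genes of that fit.

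Skp2 and Dck were also named after their values were seen, and both lay higher. Of the 54 further genes tested, 12 were higher and 5 lower at an unadjusted edgeR p under 0.05. Over all genes tested these shares were 12.5% and 12.9%. Of the 4 tested genes of histone supply, 1 lay below 0, at a log2 fold change of -0.53. Skp2, the ubiquitin ligase subunit that marks inhibitors of G1 kinases, had 13.0, 19.7 and 20.3 CPM with siCD36 and 7.63, 7.70 and 11.8 CPM with siCont. Its log2 fold change was 0.97, and it did not pass edgeR's test (adjusted p = 0.0762). Dck, deoxycytidine kinase, had 7.41, 8.53 and 10.5 CPM with siCD36 and 5.67, 5.60 and 5.62 CPM with siCont, where the 3 siCont libraries were nearly equal (log2 fold change 0.64, adjusted p = 0.0676 from edgeR).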
